A study of Mus musculus with 16 samples.

Results

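The transcripts of 10 genes of Wnt signaling were followed by RNA-Seq in chondrocyte-enriched cells of newborn mice: the secreted antagonists *Sfrp1*, *Sfrp2*, *Frzb*, *Wif1*, *Dkk2* and *Dkk3*, the ligands *Wnt5a* and *Wnt16*, and the receptors *Fzd9* and *Lgr5*. They are 10 of the 55414 Ensembl genes listed in the count data, were chosen by gene symbol, and all 10 were tested in every comparison. The choice was made with earlier results of these data known. Shares of all genes given beside the counts of the 10 are therefore a description and not a test. The lowest count of any of them was 16, for *Dkk2* in the smallest library, so that no member was near the floor of 3 counts.

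Cells came from the epiphyses of heterozygous *Notch2*tm1.1Ecan mice, labeled Notch2 mutant, and of wild type littermates, which serve as controls. In this global knock-in model of Hajdu Cheney Syndrome a premature stop codon leaves NOTCH2 without its PEST domain, which normally marks it for degradation, and every cell type of the mouse carries the allele. Cells of male and female pups were pooled, grown to confluence and treated for 6 h with vehicle (PBS) or TNFα at 50 ng/ml, with 4 libraries in each of the 4 combinations. The sample annotation records serum deprivation in the TNFα groups alone, whereas the study describes serum-free conditions for TNFα and vehicle. If the annotation is right, each difference between TNFα and vehicle given here also holds the withdrawal of serum, and the pair cannot be told apart. The libraries are labeled biological replicates. Whether each came from separate mice is not stated, and p values measure the spread between these libraries.

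Wnt proteins are secreted lipid-modified ligands that bind Frizzled receptors, either with the co-receptors LRP5 and LRP6, which stabilizes β-catenin, or with receptors such as ROR2 in pathways that do not use β-catenin. Secreted frizzled-related proteins and WIF1 bind the ligands outside the cell, and Dickkopf proteins of the DKK1 type bind the LRP co-receptors. LGR receptors bind R-spondins and thereby spare Frizzled receptors from removal by the ligases ZNRF3 and RNF43. In cartilage, Wnt signals are known to guide joint formation and chondrocyte maturation, and the antagonist encoded by *Frzb* was described early in developing skeletal cartilage.

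Library totals on genes lay between 3439726 and 44237300 counts, with a median of 17062419, and 3 counts corresponded to between 0.0678 and 0.872 CPM, which are counts scaled by library size. The smallest library was *Notch2*tm1.1Ecan TNFα replicate 4. The treatments were parted by the first principal component (79.4% of the variance). Control vehicle replicate 4 lay at -16.3 on it, whereas the other 7 vehicle libraries lay between -52.1 and -49.7. *Icam1*, an adhesion molecule that TNFα induces, was at 447 CPM in this library and between 34.6 and 41.0 CPM in the other control vehicle libraries. Control TNFα replicate 4 lay at 35.5 on the same component and the other TNFα libraries between 46.3 and 50.4. Results in control cells are therefore also given without these 2 libraries. *Notch2* was at 154 ± 13.2 CPM in *Notch2*tm1.1Ecan and 131 ± 20.2 CPM in control vehicle cells (mean ± SD, n = 4), and gene counts do not show the stop codon. The Notch target *Heyl* checked the genotype, with 1.98 ± 0.415 CPM in *Notch2*tm1.1Ecan and 0.235 ± 0.0638 CPM in control cells under vehicle, a log2 fold change of 3.04 (edgeR adjusted p = 6.25e-07). Control vehicle libraries held between 2 and 5 counts of *Heyl*, near the floor, so that the size of this change is imprecise. The study describes *Heyl* in chondrocytes as low and sometimes undetectable.

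The cells expressed chondrocyte genes at a high level, with *Col2a1*, the gene of cartilage collagen, at a mean of 38028 CPM in control vehicle cells. The summed level of 10 chondrocyte markers nevertheless differed between the groups. It ranged from 46600 to 50200 CPM in control and from 29200 to 35000 CPM in *Notch2*tm1.1Ecan libraries under vehicle, and from 33400 to 39200 CPM and from 18700 to 20500 CPM under TNFα. All 10 chondrocyte markers were lower in *Notch2*tm1.1Ecan cells under each treatment, whereas 5 of 6 fibroblast and perichondrium markers were higher under vehicle and 6 of 6 under TNFα. Smooth muscle markers (3 genes) summed to between 1350 and 1570 CPM in control and between 2700 and 3160 CPM in *Notch2*tm1.1Ecan cells under vehicle. Under TNFα these sums were between 682 and 839 CPM and between 1350 and 1680 CPM. Macrophage markers (8 genes) summed to between 58.2 and 64.2 CPM and between 110 and 130 CPM under vehicle, and to between 70.0 and 85.4 CPM and between 144 and 166 CPM under TNFα, in control and *Notch2*tm1.1Ecan cells in turn. No marker of these lists was at 0 throughout a group. The part of these shifts in the results on the 10 Wnt genes was not tested, and in bulk RNA fewer cells of a type and less RNA per cell cannot be told apart.

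Promoter sequence was found in the RefSeq table (GRCm38.p6) for 6 of the 10 genes, *Dkk2*, *Frzb*, *Fzd9*, *Sfrp2*, *Wif1* and *Wnt16*, and not for *Sfrp1*, *Dkk3*, *Wnt5a* and *Lgr5*. The stretches that lie outside annotated exons are shown for 3 genes. These are an antagonist that was higher in mutant cells (*Dkk2*), an antagonist that was lower (*Wif1*) and the ligand that was higher (*Wnt16*). Lower levels with TNFα do not set these genes apart, since all 10 were lower. The stretches are written from 5′ to 3′ on the + strand, at chr3:132085064-132085281, chr10:121033754-121033959 and chr6:22287977-22288221. Capitals mark matches on either strand to the TATA box (TATAAA), the GC box (GGGCGG) and the CCAAT box (CCAAT). In the *Dkk2* promoter a CCAAT box on the - strand runs directly into a GC box.

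Dkk2: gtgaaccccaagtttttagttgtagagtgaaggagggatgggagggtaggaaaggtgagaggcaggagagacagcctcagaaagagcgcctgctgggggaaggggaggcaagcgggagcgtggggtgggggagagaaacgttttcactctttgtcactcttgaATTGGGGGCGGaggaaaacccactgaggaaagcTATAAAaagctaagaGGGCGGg
Wif1: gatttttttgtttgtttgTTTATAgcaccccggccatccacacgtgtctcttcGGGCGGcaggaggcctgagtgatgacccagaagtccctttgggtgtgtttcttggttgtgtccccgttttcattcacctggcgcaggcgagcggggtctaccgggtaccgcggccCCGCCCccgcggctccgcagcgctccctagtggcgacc
Wnt16: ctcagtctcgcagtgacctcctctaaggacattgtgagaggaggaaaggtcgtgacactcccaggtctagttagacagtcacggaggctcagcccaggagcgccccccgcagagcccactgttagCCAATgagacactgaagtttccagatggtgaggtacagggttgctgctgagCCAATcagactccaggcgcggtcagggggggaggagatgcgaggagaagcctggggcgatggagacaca

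Over the 250 bases before the start site, a TATA box was found in 12.4% of the 32851 RefSeq promoters and in *Dkk2* and *Wif1*, where it lay from -32 to -27 and from -232 to -227 relative to the start. A GC box was found in 32.7% of all promoters and in *Dkk2*, *Frzb*, *Fzd9* and *Wif1*. A CCAAT box was found in 33.8% of all promoters and in *Dkk2* and *Wnt16*, the latter with matches from -125 to -121 and from -74 to -70. The core letters TGGGAA of the site of RBPJ, the DNA-binding partner of NOTCH, stood in 21.6% of all promoters and in 1 of the 6, *Frzb*. The TCF/LEF core CTTTGA stood in 13.8% of all and also in *Frzb*. Of the 250 bases, 229 in *Frzb*, 227 in *Fzd9*, 147 in *Sfrp2*, 44 in *Wif1*, 32 in *Dkk2* and 5 in *Wnt16* lie in annotated exons. The windows of *Dkk2* and *Frzb* lie wholly inside the annotated genes, downstream of another annotated start. Positions in these windows are relative to the RefSeq start alone. All matches given for *Frzb* and *Fzd9* fall in such exon sequence. The NF-κB consensus (3.90% of all promoters) and the AP-1 site (4.46%) had no match in the 6 windows. These are matches of letters in a short window and not measured sites.

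Per kilobase of exon, *Sfrp2* was the most abundant of the 10 transcripts in every group, at a mean of 210 CPM per kb in control vehicle and 314 CPM per kb in *Notch2*tm1.1Ecan vehicle cells. *Dkk3* followed in control vehicle cells at 64.1 CPM per kb, then *Fzd9* at 42.2, *Sfrp1* at 29.6 and *Frzb* at 20.1 CPM per kb. *Wnt5a*, *Wif1*, *Dkk2*, *Lgr5* and *Wnt16* were between 7.75 and 1.27 CPM per kb, in that order. In *Notch2*tm1.1Ecan vehicle cells *Sfrp1* reached 62.8 CPM per kb, beside 62.7 CPM per kb for *Dkk3*. All other levels are in CPM, which compares a gene between libraries and not genes with each other.

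**Figure D1:**
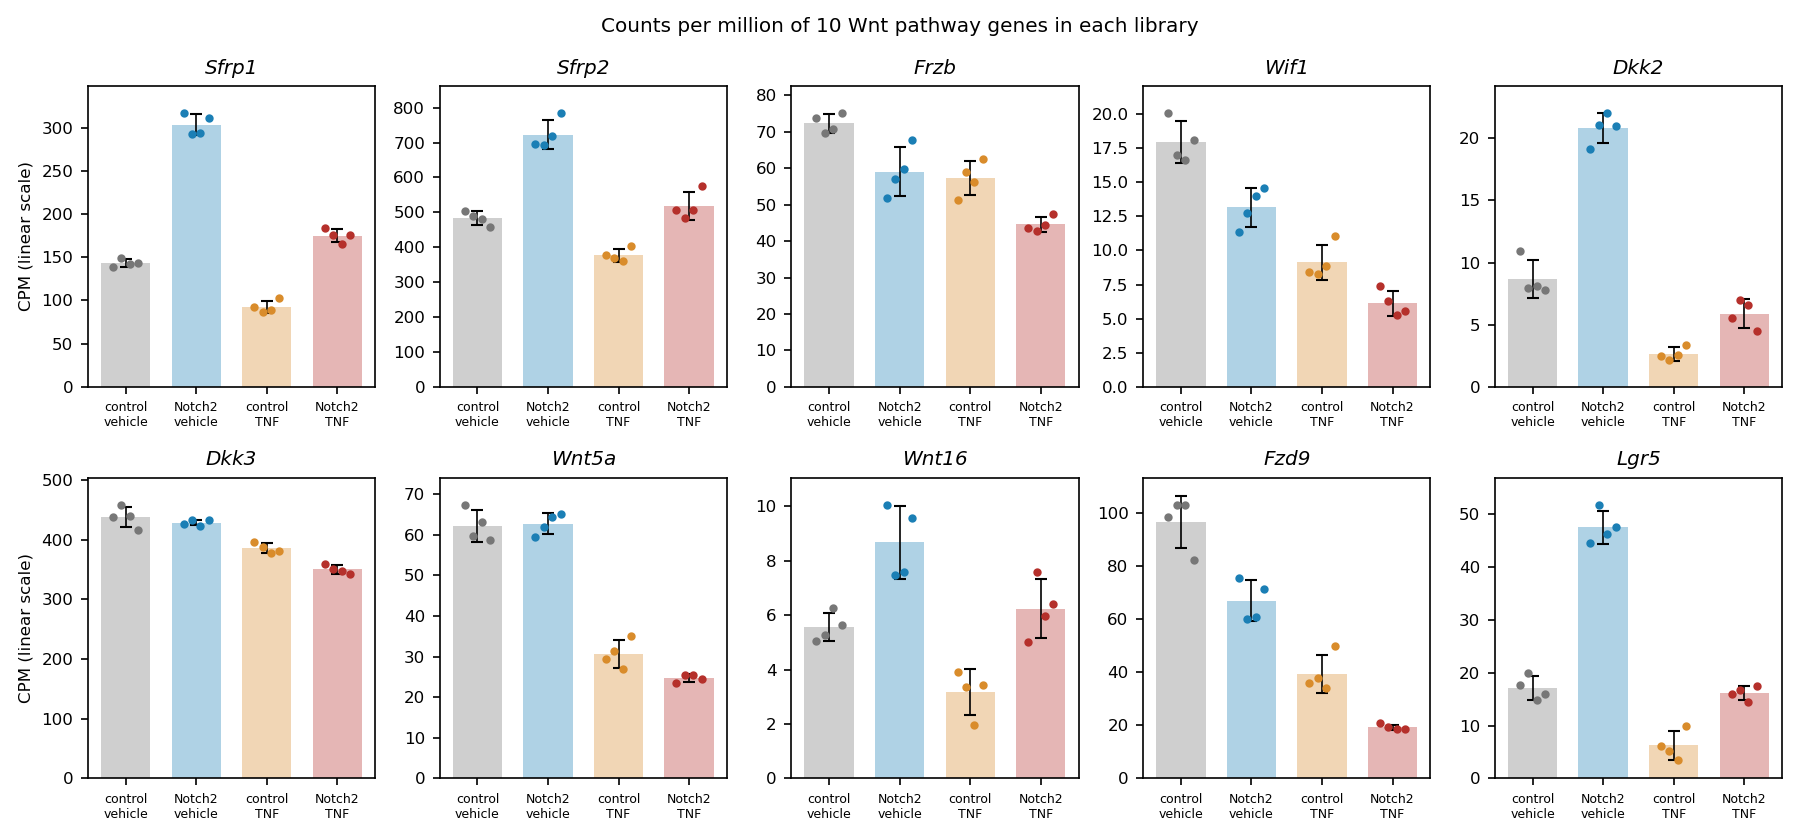
Level of each of the 10 genes in the 16 libraries, in CPM on a linear axis that starts at 0, by group; points are libraries, bars are means and whiskers are the SD (n = 4). *Sfrp1*, *Sfrp2*, *Dkk2*, *Wnt16* and *Lgr5* stand higher in the mutant cells under each treatment, and the mean of all 10 genes is lower under TNFα than under vehicle in each genotype.

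To determine the effect of the *Notch2* mutation, mutant and control cells were compared under each treatment. Under vehicle, 8 of the 10 genes differed, with *Sfrp1*, *Sfrp2*, *Dkk2*, *Wnt16* and *Lgr5* higher and *Frzb*, *Wif1* and *Fzd9* lower in *Notch2*tm1.1Ecan cells. The background in this comparison was 10.5% of the 19432 genes tested, 6.19% higher and 4.35% lower (an adjusted p under 0.05 by the quasi-likelihood test of edgeR, adjusted after Benjamini and Hochberg). For the same 8 genes no mutant library reached into the control range, against 16.1% of all genes. Under TNFα, 9 of the 10 differed, with the same 5 higher and *Frzb*, *Wif1*, *Wnt5a* and *Fzd9* lower, where the background was 9.94% (5.63% higher and 4.31% lower). The libraries did not overlap for any of the 10 genes under TNFα, against 15.3% of all genes. The median log2 fold change of the 10 was 0.30 under vehicle and 0.17 under TNFα, and that of all genes was -0.0020 and -0.012. *Wnt16*, *Fzd9*, *Dkk2* and *Lgr5* are among the genes that the study itself listed from these libraries, so that their differences are not independent evidence. The other members were also chosen with earlier results known. With a log2 fold change of 1 or more also required, 3 of the 10 were called under vehicle (*Sfrp1*, *Dkk2* and *Lgr5*), against 1.26% of all genes, and 4 under TNFα (*Dkk2*, *Wnt16*, *Fzd9* and *Lgr5*), against 1.41%.

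**Figure D2:**
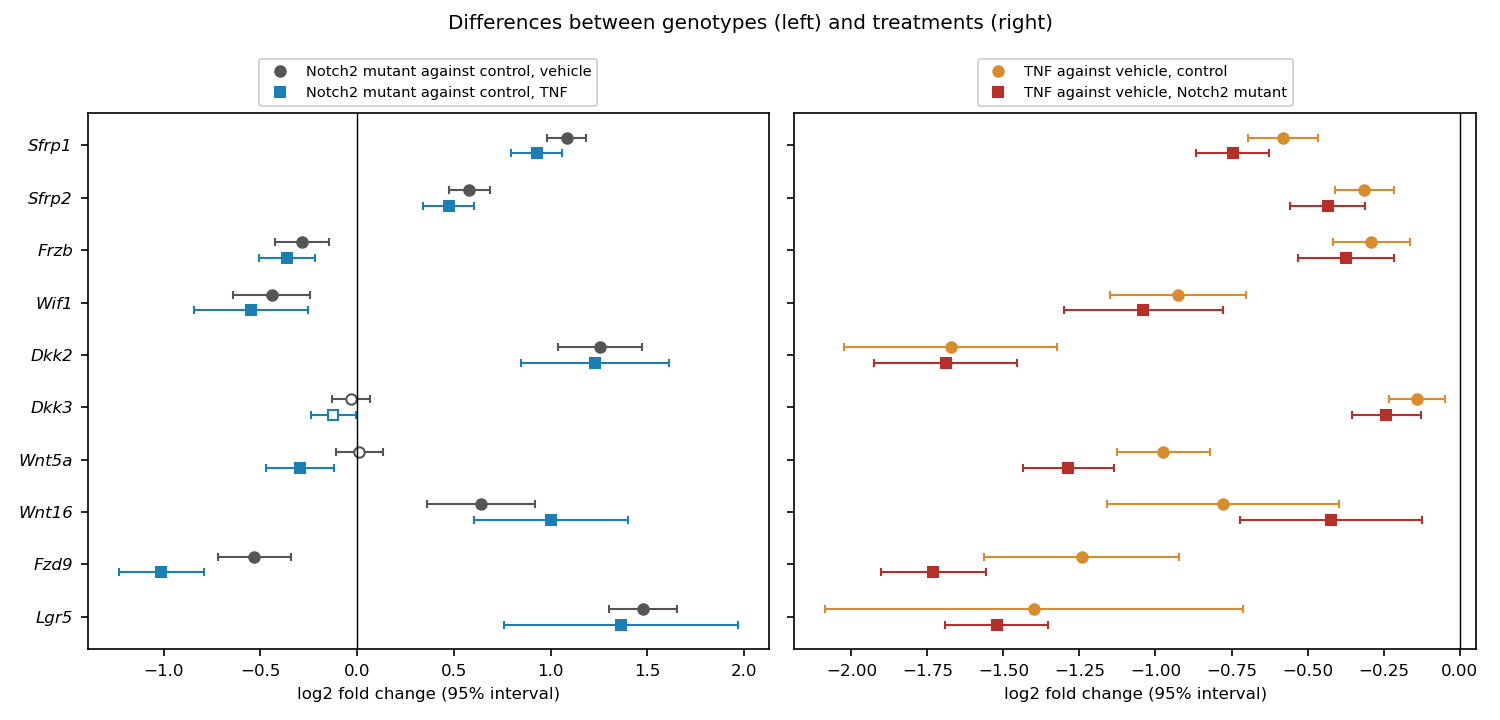
Log2 fold changes of the 10 genes between genotypes (left) and between TNFα and vehicle (right) with 95% intervals, from fits to 8 libraries each; filled symbols passed an adjusted p of 0.05 and open symbols did not. The genotype differences point both ways, with *Lgr5* and *Dkk2* farthest to the right and *Fzd9* farthest to the left under each treatment, whereas the 20 TNFα differences all lie below 0.

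*Sfrp1* (ENSMUSG00000031548, GRCm39 chromosome 8, 23901263 to 23939648, + strand) encodes a secreted frizzled-related protein that binds Wnt ligands through a domain like that of Frizzled receptors. Its level under vehicle was 138.1, 148.5, 142.6 and 142.9 CPM in the control libraries and 316.4, 292.3, 293.6 and 311.0 CPM in the *Notch2*tm1.1Ecan libraries. The genotypes were thus far apart and each was tightly grouped. Expression was 2.12-fold higher in the mutant (95% interval 1.97 to 2.27; log2 fold change 1.08, standard error 0.049, edgeR adjusted p = 1.19e-12). Under TNFα the control libraries were at 92.63, 86.48, 89.39 and 102.5 CPM and the mutant libraries at 183.3, 175.2, 165.3 and 175.3 CPM. The log2 fold change was 0.93 (standard error 0.064, edgeR adjusted p = 3.69e-11). No 2 groups overlapped, and mutant cells with TNFα still exceeded control cells with vehicle.

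*Sfrp2* (ENSMUSG00000027996, chromosome 3, 83673481 to 83681623, + strand), a paralog of *Sfrp1* with the same kind of domain, showed a smaller difference of the same direction. Levels under vehicle were 504.7, 488.1, 480.9 and 456.8 CPM in control and 696.9, 691.7, 717.3 and 783.6 CPM in *Notch2*tm1.1Ecan libraries, a log2 fold change of 0.58 (standard error 0.051, edgeR adjusted p = 2.45e-08). With TNFα they were 377.0, 367.7, 360.4 and 402.1 CPM in control and 507.1, 484.2, 505.7 and 576.4 CPM in mutant libraries, a log2 fold change of 0.47 (standard error 0.065, edgeR adjusted p = 6.33e-06). Each mutant group stood above its control group, and mutant TNFα and control vehicle libraries overlapped. *Frzb* (ENSMUSG00000027004, chromosome 2, 80242313 to 80278304, - strand), which encodes sFRP3, went the other way. Its level under vehicle was 73.68, 69.53, 70.80 and 75.05 CPM in control and 51.88, 56.96, 59.79 and 67.72 CPM in mutant libraries, and the log2 fold change was -0.29 (standard error 0.068, edgeR adjusted p = 0.00583). Under TNFα it was 51.31, 58.94, 56.33 and 62.51 CPM against 43.62, 42.82, 44.44 and 47.31 CPM, a log2 fold change of -0.36 (standard error 0.071, edgeR adjusted p = 0.00072). The groups were separate under each treatment but the gaps were narrow. Within the family, *Sfrp1* and *Sfrp2* were therefore higher and *Frzb* lower in the same mutant libraries.

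*Wif1* (ENSMUSG00000020218, chromosome 10, 120869865 to 120936555, + strand) encodes Wnt inhibitory factor 1, which binds Wnt ligands through its own WIF domain. It was at 20.05, 16.98, 16.64 and 18.08 CPM in control and at 11.34, 12.72, 13.99 and 14.56 CPM in *Notch2*tm1.1Ecan vehicle libraries, 1.36-fold lower (95% interval 1.18 to 1.56; log2 fold change -0.44, edgeR adjusted p = 0.0027). Under TNFα levels were 8.421, 8.257, 8.824 and 11.04 CPM in control and 7.356, 6.280, 5.285 and 5.566 CPM in mutant cells, with a log2 fold change of -0.55 (standard error 0.14, edgeR adjusted p = 0.0109). All 4 groups were separate, in the order control vehicle, mutant vehicle, control TNFα and mutant TNFα. The call under TNFα was lost when *Notch2*tm1.1Ecan TNFα replicate 3 was left out (log2 fold change -0.47, edgeR adjusted p = 0.0674).

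*Dkk2* (ENSMUSG00000028031, chromosome 3, 131790336 to 131886065, + strand) encodes a Dickkopf protein that binds LRP5 and LRP6 and, depending on the cell, can inhibit or favor Wnt signaling. Control vehicle libraries were at 10.92, 7.955, 8.092 and 7.766 CPM and *Notch2*tm1.1Ecan vehicle libraries at 19.13, 21.08, 22.01 and 21.03 CPM. Control replicate 1 stood above the other control libraries and still far below the mutant ones. The difference was 2.39-fold (95% interval 2.05 to 2.78; log2 fold change 1.26, standard error 0.11, edgeR adjusted p = 1.27e-08). Under TNFα the levels were 2.495, 2.119, 2.521 and 3.390 CPM in control and 5.533, 7.023, 6.593 and 4.453 CPM in mutant libraries, and the log2 fold change was 1.23 (standard error 0.19, edgeR adjusted p = 2.81e-05). The genotype difference was thus of like size at a much lower level. *Dkk3* (ENSMUSG00000030772, chromosome 7, 111712904 to 111758760, - strand) is the most divergent Dickkopf gene, and its product is not a typical LRP ligand. It was at 438 ± 17.2 CPM in control and 428 ± 4.69 CPM in mutant vehicle cells (SD, n = 4), and the log2 fold change of -0.033 did not pass the test (95% interval -0.13 to 0.064, edgeR adjusted p = 0.765). Under TNFα it was at 396.4, 388.3, 377.3 and 380.7 CPM in control and at 359.1, 351.4, 347.6 and 342.3 CPM in mutant libraries. These groups did not overlap, but the log2 fold change of -0.12 missed the threshold (95% interval -0.24 to -0.0061, edgeR adjusted p = 0.205).

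*Wnt5a* (ENSMUSG00000021994, chromosome 14, 28226495 to 28249405, + strand) encodes a ligand that acts mainly without β-catenin and takes part in the growth of limbs and growth plates. Under vehicle it was at 67.39, 59.66, 63.17 and 58.79 CPM in control and at 59.46, 61.99, 64.29 and 65.21 CPM in *Notch2*tm1.1Ecan libraries, with overlapping groups and a log2 fold change of 0.011 (95% interval -0.11 to 0.13, edgeR adjusted p = 0.95). Under TNFα it was at 29.32, 31.35, 26.99 and 35.13 CPM in control and 23.50, 25.58, 25.40 and 24.49 CPM in mutant libraries, and the mutant libraries were all lower (log2 fold change -0.30, standard error 0.086, edgeR adjusted p = 0.0248). The call was lost without control TNFα replicate 4 (-0.23, edgeR adjusted p = 0.0756), without *Notch2*tm1.1Ecan TNFα replicate 1 (-0.26, edgeR adjusted p = 0.101) and with a replicate block (-0.27, edgeR adjusted p = 0.0585).

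*Wnt16* (ENSMUSG00000029671, chromosome 6, 22288221 to 22298521, + strand) encodes a ligand known for its role in cortical bone and in the joint. Levels under vehicle were 5.068, 5.278, 6.264 and 5.642 CPM in control and 10.06, 7.477, 7.598 and 9.564 CPM in *Notch2*tm1.1Ecan libraries, 1.56-fold higher in the mutant (95% interval 1.28 to 1.89; log2 fold change 0.64, edgeR adjusted p = 0.00215). Under TNFα they were 3.899, 3.368, 1.948 and 3.441 CPM in control and 5.012, 7.594, 5.967 and 6.401 CPM in mutant libraries, with a log2 fold change of 1.00 (standard error 0.19, edgeR adjusted p = 0.000653). The mutant libraries were above the control libraries under each treatment, and mutant cells with TNFα overlapped both the mutant and the control cells with vehicle. With 23 counts of *Wnt16* in the smallest library, the values of this gene are among the least precise of the 10.

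*Fzd9* (ENSMUSG00000049551, chromosome 5, 135277792 to 135280084, - strand) encodes a Frizzled receptor that is also known from osteoblasts. Control vehicle libraries were at 98.52, 103.1, 103.2 and 82.21 CPM, the lowest being replicate 4, and *Notch2*tm1.1Ecan vehicle libraries at 75.76, 60.07, 60.78 and 71.38 CPM. The groups were separate, and the log2 fold change was -0.53 (standard error 0.087, edgeR adjusted p = 0.000867). Under TNFα the control libraries were at 36.10, 37.86, 34.09 and 50.03 CPM, here with replicate 4 as the highest, and the mutant libraries at 20.70, 19.30, 18.70 and 18.65 CPM. Expression was 2.02-fold lower in the mutant (log2 fold change -1.01, standard error 0.11, edgeR adjusted p = 7e-07). No groups overlapped, and the order of the levels was that of *Wif1*.

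*Lgr5* (ENSMUSG00000020140, chromosome 10, 115286216 to 115423685, - strand) encodes an R-spondin receptor that is itself a target of β-catenin in many tissues. It had the largest genotype difference of the 10, with 17.65, 19.96, 14.75 and 16.02 CPM in control and 44.58, 51.82, 46.27 and 47.61 CPM in *Notch2*tm1.1Ecan vehicle libraries. It was 2.79-fold higher in the mutant (95% interval 2.47 to 3.15; log2 fold change 1.48, standard error 0.084, edgeR adjusted p = 2.28e-11). Under TNFα the control libraries were more scattered, at 6.160, 5.269, 3.553 and 9.913 CPM, and the mutant libraries were at 16.01, 16.79, 14.49 and 17.53 CPM. The log2 fold change was 1.36 (standard error 0.26, edgeR adjusted p = 0.0117), and without control TNFα replicate 4, the highest of that group, it was 1.70 (edgeR adjusted p = 2.14e-09). Mutant cells with TNFα overlapped control cells with vehicle.

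To determine the effect of TNFα, treated and vehicle cells were compared in each genotype. All 10 genes were lower with TNFα in control cells, and all 10 were lower in *Notch2*tm1.1Ecan cells. The background was high, with 44.2% of the genes tested called in control cells (20.9% lower) and 44.5% in mutant cells (21.9% lower). The libraries did not overlap for all 10 genes in control cells, against 42.2% of all genes, and for 9 of the 10 in mutant cells, against 40.9%, the exception being *Wnt16*. With a log2 fold change of 1 or more, the count was 3 in control cells (background 11.8%) and 5 in mutant cells (13.9%). The median log2 fold change of the 10 was -0.85 in control and -0.89 in mutant cells, and that of all genes was 0.039 and 0.026.

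The largest falls were those of *Dkk2*, *Lgr5*, *Fzd9*, *Wnt5a* and *Wif1*. *Dkk2* fell 3.19-fold in control cells (log2 fold change -1.67, standard error 0.17, edgeR adjusted p = 3.83e-08) and 3.23-fold in mutant cells (log2 fold change -1.69, edgeR adjusted p = 1.27e-12). *Lgr5* fell by 1.40 on the log2 scale in control cells (standard error 0.29, edgeR adjusted p = 0.00628) and by 1.52 in mutant cells (edgeR adjusted p = 1.07e-14). *Fzd9* fell by 1.24 in control cells (standard error 0.14, edgeR adjusted p = 0.000178) and by 1.73 in mutant cells (edgeR adjusted p = 9.31e-16). The ligand *Wnt5a* fell by 0.97 in control and by 1.29 in mutant cells (edgeR adjusted p = 7.83e-10 and 2.42e-14). *Wif1* fell by 0.93 and by 1.04 (edgeR adjusted p = 3.09e-07 and 1.13e-07).

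The frizzled-related genes fell less. *Sfrp1* fell by 0.58 on the log2 scale in control and by 0.75 in mutant cells (edgeR adjusted p = 1.89e-08 and 2.36e-11), *Sfrp2* by 0.31 and by 0.43, and *Frzb* by 0.29 and by 0.37 (edgeR adjusted p of 0.000401 or less for *Sfrp2* and *Frzb*). *Dkk3* showed the smallest fall, by 0.14 in control cells (edgeR adjusted p = 0.0133) and by 0.24 in mutant cells (edgeR adjusted p = 0.000676). In control cells its call was lost without vehicle replicate 2 (-0.12, edgeR adjusted p = 0.0693) and without TNFα replicate 3 (-0.13, edgeR adjusted p = 0.0537). *Wnt16* fell by 0.78 in control cells (edgeR adjusted p = 0.00134) and by 0.42 in mutant cells (edgeR adjusted p = 0.0188). The latter call was lost without *Notch2*tm1.1Ecan vehicle replicate 4 (-0.36, edgeR adjusted p = 0.0807), without *Notch2*tm1.1Ecan TNFα replicate 1 (-0.31, edgeR adjusted p = 0.111) and without TNFα replicate 3 (-0.40, edgeR adjusted p = 0.0595).

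When replicate 4 of vehicle and of TNFα was left out of the control cells, all 10 genes remained lower with TNFα and past the test, and each fall was larger. *Lgr5* then fell by 1.79 on the log2 scale (edgeR adjusted p = 8.95e-09) and *Fzd9* by 1.46 (edgeR adjusted p = 2.21e-18), and *Dkk2* by 1.90 and *Wnt5a* by 1.08. Control vehicle replicate 4 was the lowest control vehicle library for *Fzd9*, *Wnt5a*, *Sfrp2*, *Dkk3* and *Dkk2*, and the highest for *Frzb*. Its *Lgr5*, *Sfrp1*, *Wif1* and *Wnt16* levels lay within the range of the other 3.

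**Figure D3:**
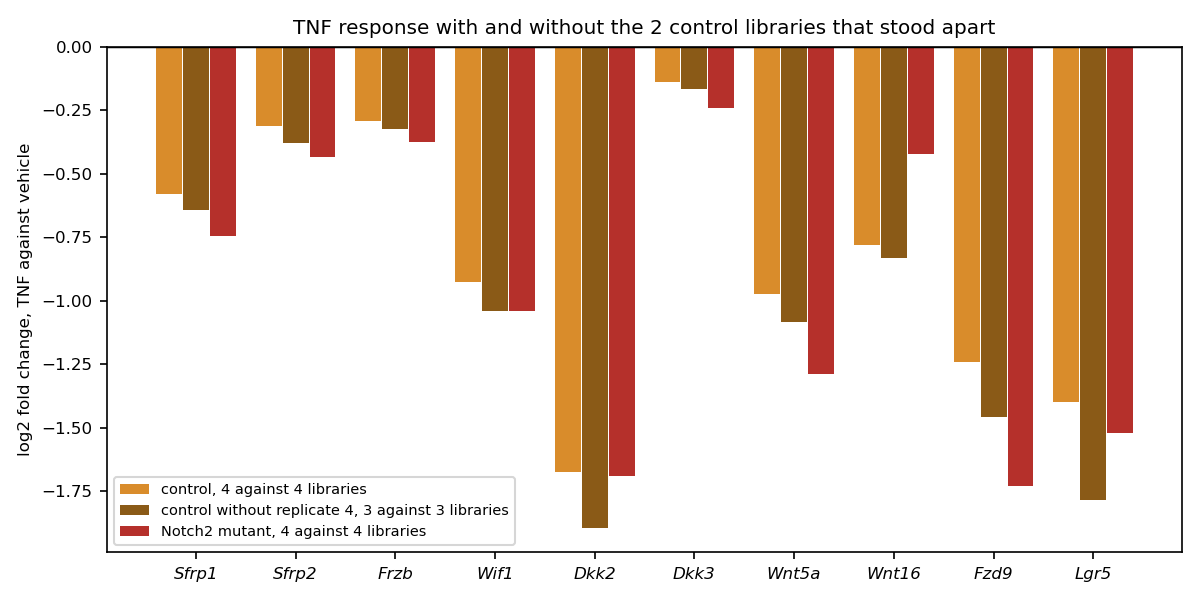
Log2 fold change of TNFα against vehicle for each gene, in control cells with all 8 libraries, in control cells without replicate 4 of either treatment (3 against 3 libraries) and in *Notch2*tm1.1Ecan cells with all 8 libraries; bars start at 0 and carry no error bars. Every bar lies below 0, and in control cells every bar is longer without replicate 4.

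Whether the response to TNFα differed between the genotypes was tested as an interaction over all 16 libraries. None of the 10 genes passed in edgeR at an adjusted p of 0.05, where 0.474% of the 21321 genes tested did (0.267% upward and 0.206% downward), and 2 of the 10 had an unadjusted p under 0.05, against 8.71% of all genes. DESeq2 also called 0 of the 10. These 2 were *Fzd9*, with a difference in log2 fold change of -0.48 (95% interval -0.83 to -0.13, edgeR adjusted p = 0.315), and *Wnt5a*, with -0.31 (95% interval -0.52 to -0.097, edgeR adjusted p = 0.251). In both genes the fall was the larger one in mutant cells. *Fzd9* passed only when all genes with at least 1 count were kept (-0.50, edgeR adjusted p = 0.000428), and without replicate 4 of both control groups its difference was -0.27 (edgeR adjusted p = 0.414). For *Dkk2* the difference was -0.013 with an interval from -0.49 to 0.46, and for *Lgr5* it was -0.12 with an interval from -0.74 to 0.50. These intervals hold differences in either direction for the 2 genes with the largest genotype differences. The narrowest interval was that of *Dkk3*, from -0.25 to 0.055.

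To place the 10 genes within the pathway, 7 lists of Wnt genes were counted in the same fits. Members of the 10 are counted in their lists. Of 15 secreted antagonists, 11 had enough counts under vehicle, and the 5 called were members, 3 higher (*Sfrp1*, *Sfrp2* and *Dkk2*) and 2 lower. Of all genes, 6.19% were higher and 4.35% lower. The same 5 antagonists were called among the 12 tested under TNFα, where 5.63% of all genes were higher and 4.31% lower. No antagonist outside the 10 was called under either treatment, so that these counts repeat the choice of the members. Of 15 receptors and co-receptors, 5 were higher under vehicle (*Fzd1*, *Fzd4*, *Fzd5*, *Fzd7* and *Ror1*) and 2 were lower (*Fzd6* and *Fzd9*), against 6.19% and 4.35% of all genes. *Fzd5* was at 86.4 ± 4.25 CPM in *Notch2*tm1.1Ecan and 55.6 ± 2.90 CPM in control vehicle cells (log2 fold change 0.64, edgeR adjusted p = 5.63e-08), and *Fzd4* at 60.4 ± 4.45 and 41.2 ± 0.987 CPM (0.55, edgeR adjusted p = 1.04e-06). *Fzd9* thus had the opposite direction to most Frizzled genes that were called. Under TNFα 2 receptors were higher, *Fzd1* (0.54, edgeR adjusted p = 2.29e-06) and *Ror1* (0.67, edgeR adjusted p = 2.38e-05), and 2 were lower, *Fzd6* and *Fzd9*. Of all genes, 5.63% were higher and 4.31% lower under TNFα. The call of *Fzd6* under TNFα did not survive the loss of replicate 4 of the control TNFα group or of replicate 1 of the mutant TNFα group (edgeR adjusted p up to 0.0842).

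Of 19 Wnt ligand genes, 12 were tested under vehicle and 3 called, *Wnt16* higher and *Wnt10a* and *Wnt10b* lower. Among all genes 6.19% were higher and 4.35% lower. *Wnt10a*, a ligand of the β-catenin pathway, was at 2.30 ± 0.296 CPM in control and 0.746 ± 0.115 CPM in mutant vehicle cells (log2 fold change -1.61, edgeR adjusted p = 5.56e-05), and it was also lower under TNFα (-0.95, edgeR adjusted p = 0.00218). *Wnt10b* lost its call without any 1 of 5 libraries (edgeR adjusted p up to 0.139). It overlaps *Wnt1* on the opposite strand, which could affect its count if counting ignored strand. *Wnt1* itself had at most 2 counts in a library. Under TNFα 14 ligands were tested, with *Wnt16* higher and *Wnt5a*, *Wnt7b* and *Wnt10a* lower, and *Wnt7b* lost its call in 9 of 14 alternative fits. The shares of all genes were then 5.63% higher and 4.31% lower. Of 8 tested genes of the R-spondin and LGR list, *Rspo2* and *Lgr5* were higher and *Lgr6* lower in the mutant under each treatment. The shares of all genes given for the ligands under each treatment apply here too. For *Lgr6* the mutant and control libraries overlapped under vehicle (edgeR adjusted p = 0.0168) and under TNFα (edgeR adjusted p = 0.0351), where a mutant library held as few as 2 counts. *Rspo2*, which encodes a ligand of LGR receptors, was at 79.5 ± 4.57 CPM in mutant and 55.6 ± 6.17 CPM in control vehicle cells (log2 fold change 0.51, edgeR adjusted p = 1.32e-05).

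Among 13 tested target genes of β-catenin, 5 were higher in mutant vehicle cells (*Nkd1*, *Nkd2*, *Apcdd1*, *Lgr5* and *Ccn4*) and *Ccnd1* was lower. Among all genes 6.19% were higher and 4.35% lower. *Nkd2*, a feedback inhibitor that acts on Dishevelled, was at 9.85 ± 0.779 CPM in mutant and 5.97 ± 1.00 CPM in control vehicle cells (log2 fold change 0.72, edgeR adjusted p = 0.000466). *Ccn4*, a matricellular protein gene, was higher by 0.63 under vehicle (edgeR adjusted p = 6.96e-08) and by 0.73 under TNFα (edgeR adjusted p = 2.16e-08). Under TNFα 2 targets were higher, *Lgr5* and *Ccn4*, and 2 were lower, *Lef1* and *Ccnd1*, both of which lost the call without control TNFα replicate 1 (edgeR adjusted p up to 0.0712 for *Lef1* and 0.0716 for *Ccnd1* over all libraries left out). The shares of all genes were then 5.63% higher and 4.31% lower. *Axin2*, a common readout of β-catenin, was at 2.85 ± 0.212 CPM in mutant and 2.89 ± 0.483 CPM in control vehicle cells, and did not pass the test. None of the 12 intracellular components passed under vehicle, where edgeR found an unadjusted p under 0.05 for 0 of them and DESeq2 called 0, and *Tcf7l1* alone was called under TNFα. Leaving out any 1 of 6 libraries ended that call (edgeR adjusted p up to 0.112).

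With TNFα the receptor list moved largely in the direction of *Fzd9* and *Lgr5*. In each genotype 11 of 15 receptors and co-receptors were lower, the same 11 (*Fzd2*, *Fzd4* to *Fzd9*, *Lrp5*, *Lrp6*, *Ror2* and *Ryk*), where 20.9% and 21.9% of all genes were. *Fzd4* fell by 1.54 on the log2 scale in control and by 1.99 in mutant cells (edgeR adjusted p = 0.000158 and 9.8e-17). Of the receptors, 2 were higher in control cells, *Fzd1* and *Fzd10*, and 3 in mutant cells, with *Ror1* added, where 23.3% and 22.6% of all genes were. *Fzd1* rose by 0.51 and by 0.62 (edgeR adjusted p = 1.33e-07 and 1.7e-08). *Fzd10* had between 2 and 4 counts in the control vehicle libraries and between 7 and 21 in the control TNFα libraries (log2 fold change 1.97, edgeR adjusted p = 0.00335), and its mutant groups overlapped. Of the secreted antagonists, 6 of 10 tested in control and 8 of 11 tested in mutant cells were lower, where 20.9% and 21.9% of all genes were. The 6 in control cells were all members, so that their count repeats the choice of the members. The 2 further genes in mutant cells were *Sfrp4*, which fell by 0.65 (edgeR adjusted p = 0.00407), and *Sost*, which had at most 10 counts in a mutant vehicle library and none in the mutant TNFα libraries, with groups that overlap. *Sost* was thus tested through its vehicle counts alone, and its call adds nothing to the count. *Sfrp5* was called higher in control cells at between 4 and 9 counts per TNFα library, and lost the call in 10 of 14 alternative fits, among them DESeq2, the replicate block and 7 of the 8 fits with a library left out. Control vehicle libraries held at most 3 counts of *Sfrp5*, so that it had enough counts for a test only through the TNFα libraries. Its call therefore adds nothing to the count.

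**Figure D4:**
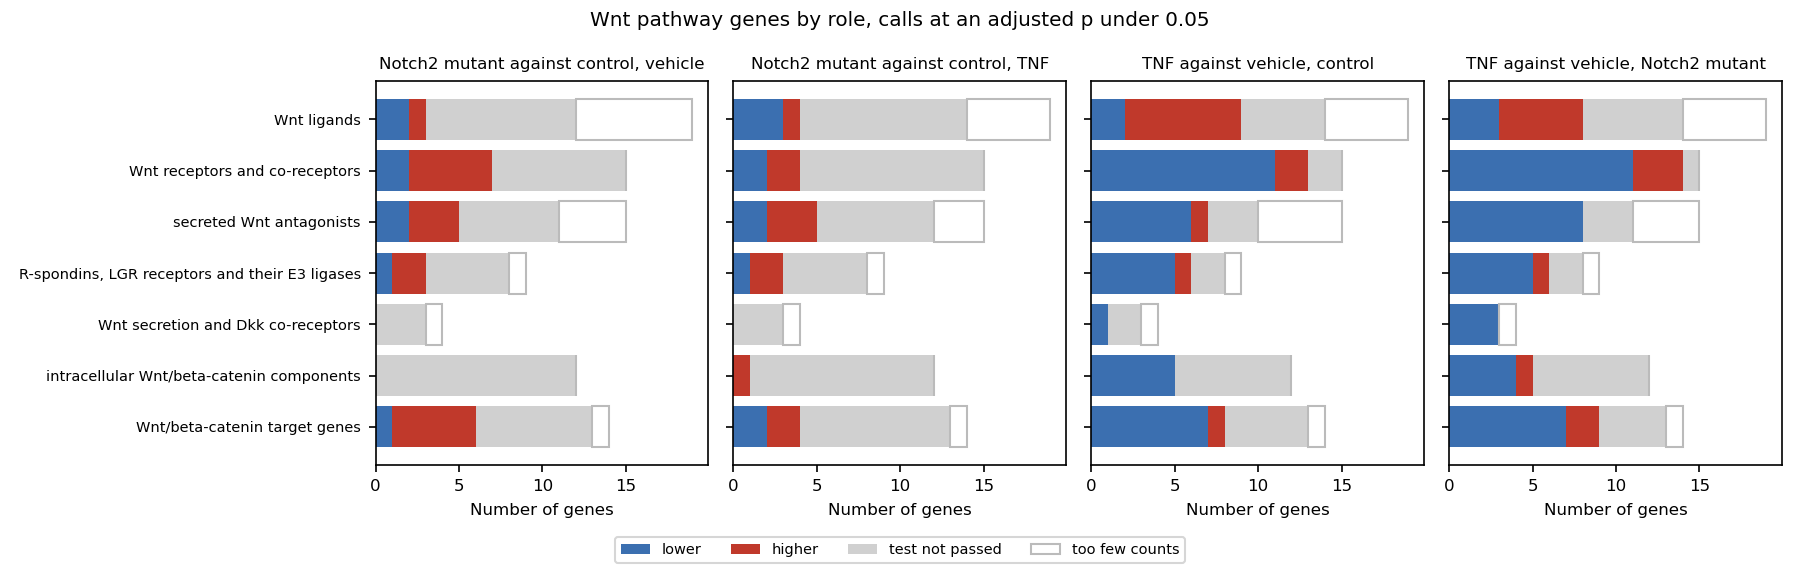
Number of genes of 7 Wnt lists that were lower (blue), higher (red), not past the test (gray) or too low in counts to be tested (white) in each of the 4 comparisons, at an adjusted p under 0.05; members of the 10 are included. In the TNFα panels blue exceeds red for receptors and for antagonists, and the ligand row holds more red for TNFα than for the genotype.

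The ligand list was divided. In control cells 7 of 14 tested ligands were higher with TNFα and 2 were lower, namely the members *Wnt5a* and *Wnt16*, where 23.3% of all genes were higher and 20.9% lower. In mutant cells 5 were higher and 3 lower, with *Wnt2b* added to the same pair, where 22.6% of all genes were higher and 21.9% lower. Of the higher ligands, *Wnt3a* in each genotype and *Wnt8a* in control cells had enough counts for a test only through the TNFα libraries. Their calls therefore add nothing to these counts. *Wnt6* rose from 0.515 ± 0.118 to 2.10 ± 0.515 CPM in control and from 0.361 ± 0.0885 to 2.31 ± 0.607 CPM in mutant cells (log2 fold change 2.04 and 2.70, edgeR adjusted p = 1e-05 and 8.27e-08). *Wnt10a* rose from 2.30 ± 0.296 to 7.49 ± 1.56 CPM in control and from 0.746 ± 0.115 to 4.02 ± 1.22 CPM in mutant cells (edgeR adjusted p = 4.18e-08 and 2.04e-08). These ligands were at low levels. *Wnt3a* had at most 1 count in a vehicle library and at most 9 in a TNFα library, and *Wnt8a* at most 2 and 9.

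In the R-spondin and LGR list, *Rspo3*, *Lgr4*, *Lgr5*, *Lgr6* and *Znrf3* were lower with TNFα in each genotype and *Rspo2* was higher. *Rspo2* rose to 103 ± 6.21 CPM in control and to 156 ± 6.07 CPM in mutant cells (log2 fold change 0.93 and 1.03, edgeR adjusted p = 1.4e-08 and 2.36e-13). *Lgr6* fell with *Lgr5*, from 9.23 ± 1.19 to 2.78 ± 0.932 CPM in control and from 6.47 ± 1.12 to 1.25 ± 0.597 CPM in mutant cells (log2 fold change -1.69 and -2.12). Among the target genes 7 of 13 tested were lower in each genotype, including *Lgr5*, *Nkd1* and *Nkd2*, where 20.9% of all genes were in control and 21.9% in mutant cells. *Nkd2* fell by 1.52 on the log2 scale in control and by 2.33 in mutant cells (edgeR adjusted p = 3.82e-06 and 4.46e-12). *Lef1*, which encodes a transcription factor partner of β-catenin, rose by 1.19 and by 1.22 (edgeR adjusted p = 4.38e-08 and 2.34e-09). *Axin2* passed in mutant cells alone, at 4.89 ± 0.565 CPM with TNFα (log2 fold change 0.86, edgeR adjusted p = 0.000113), and the interaction did not pass (0.50, 95% interval -0.041 to 1.04, edgeR adjusted p = 0.636).

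In the remaining lists, *Wls*, which carries Wnt proteins to the cell surface, fell by 0.36 on the log2 scale in control and by 0.53 in mutant cells (edgeR adjusted p = 8.41e-07 and 1.23e-06). *Porcn* and *Kremen1* were also lower in mutant cells, and each lost the call without any 1 of 3 libraries, *Porcn* without mutant vehicle replicate 3 or mutant TNFα replicate 2 or 3 (edgeR adjusted p up to 0.0818) and *Kremen1* without mutant vehicle replicate 2 or 4 or mutant TNFα replicate 1 (edgeR adjusted p up to 0.1). Among the 12 intracellular components 5 were lower in control cells (*Ctnnb1*, *Gsk3a*, *Dvl3*, *Tcf7l1* and *Tcf7l2*) and 4 in mutant cells (*Ctnnb1*, *Csnk1a1*, *Dvl3* and *Tcf7l2*), where *Apc* was higher. The 5 of 12 called in each genotype are near the share of all genes called, 44.2% in control and 44.5% in mutant cells. Of all genes, 20.9% and 21.9% were lower. *Ctnnb1*, which encodes β-catenin, fell by 0.27 and by 0.25, whereas the groups of *Apc* overlapped. In mutant cells *Csnk1a1* and *Dvl3* each lost the call without any 1 of 5 libraries, which were vehicle replicates 2, 3 and 4 with TNFα replicates 1 and 3 for *Csnk1a1* (edgeR adjusted p up to 0.124) and with TNFα replicates 1 and 2 for *Dvl3* (up to 0.229). *Dvl3* also lost it with DESeq2 (adjusted p = 0.066). The interaction was called for 0 genes of the 7 lists by edgeR and by DESeq2, and 14 of the 76 list genes tested had an unadjusted p under 0.05 in edgeR, against 8.71% of all genes tested.

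As a description of which transcripts varied alike, each of the 10 genes was correlated with 12410 protein-coding genes over the 16 libraries (Pearson's r of log2(CPM + 0.5)). The libraries fall into 4 groups, and the values describe the order of the groups and the shared depth of the libraries. *Sfrp1* was most like *Aoc3* and *Tagln* (r = 0.989 each), and *Lgr5* most like *Acta2* (0.978) and *Cacna1c* (0.977). *Tagln* and *Acta2* are smooth muscle genes, and *Acta2* is in the smooth muscle list given above, whose sum had the same order of groups as *Lgr5*. *Sfrp2* was most like *Prag1* and *Aoc3* (0.981 each), *Dkk2* like *Rrm1* (0.992) and *Inhbb* (0.989), and *Wnt16* like *Mdga1* (0.950) and *Mmp19* (0.949). *Frzb* was most like *Sox6* (0.959), a transcription factor of chondrocytes, and *Galnt3* (0.954). *Fzd9* was most like *Sh3tc2* (0.992) and *Fgfr2* (0.991), and *Wif1* like *Gja1* (0.982) and *Usp29* (0.980). *Wnt5a* was most like *Smad9* and *Fhl1* (0.993 each), and *Dkk3* like *Tmem151a* (0.980) and *Cbr2* (0.979).

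Annotated genes on the opposite strand overlap 6 of the 10, *Sfrp2*, *Frzb*, *Dkk2*, *Wnt5a*, *Fzd9* and *Lgr5*. The strand setting of the counting is not given in the sources used here. Of the overlapping genes that the count data list, *Gm26771* (at *Sfrp2*) had at most 27 counts in a library and *Gm2670* (at *Wnt5a*) at most 12, and *A930009A15Rik* (at *Lgr5*) had 0.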

How the data were processed

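RNA of 16 samples was sequenced as stranded mRNA libraries. The deposited values are whole-number counts per Ensembl gene from htseq-count, without normalization. The genome build is given as GRCm39 in the study and GRCm38 in the submitters' processing notes, which name HISAT2 2.1.0 and SAMtools 1.9. Entries that name no gene (5 per file, 8.81 to 12.1% of a library) were left out. Symbols and positions are from GENCODE M39 (665 identifiers unmatched).

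Counts were analyzed with edgeR 4.0.16 in R 4.3.3 (TMM normalization, robust quasi-likelihood fit). A gene was tested if its counts in the 8 libraries compared (16 for the interaction) came to 10 or more. A call is a Benjamini-Hochberg adjusted p under 0.05 over all genes tested. The study used DESeq2 with covariates it does not name. No covariate was used here. CPM were computed on TMM-scaled library sizes. The fits were tried on simulated counts with the same dispersion for every gene, no library standing apart, and changes set only in well-counted genes. That trial does not cover genes of low counts or the control libraries that stood apart.

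Members, lists and tests were chosen with earlier results of these data known. A rule chose at most 3 non-members per list and comparison, those with the largest change among called genes whose groups do not overlap, and *Notch2* and *Heyl* checked the genotype. Genes named as part of a count, genes outside the rule such as *Axin2*, *Sost*, *Lgr6* between genotypes, *Icam1* and *Col2a1*, and other comparisons of the rule's genes were named after their values were seen. Alternatives were DESeq2 1.42.0, RLE normalization, other filters, thresholds and fits, a replicate block and each library left out.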

Additional observations from a re-analysis of the deposited data

Results flagged for a closer look

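*Dkk2* was at 10.92 CPM in control vehicle replicate 1 and between 7.766 and 8.092 CPM in the other 3 control vehicle libraries. The gap took 0.897 of the range of the group, above Dixon's critical value for 4 samples. It was the only sample apart among 40 groups examined (10 genes in 4 groups), where chance alone gives about 1 in 20.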

How the results depend on the processing

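Of the member calls, the 4 that changed when a library was left out or a replicate block was added are given with the results (*Wif1* and *Wnt5a* under TNFα between genotypes, *Dkk3* with TNFα in control and *Wnt16* with TNFα in mutant cells). The count of called members kept within 1 of its value under DESeq2, RLE normalization, filterByExpr, an adjusted p under 0.1, the replicate block and every library left out, in all 5 comparisons. With filterByExpr, which drops more genes of low counts, the share of all genes called was higher. Between genotypes it was 14.7% under vehicle and 13.5% under TNFα. With TNFα it was 56.3% in control and 56.9% in mutant cells. If a log2 fold change of 1 or more was required, 3 members were called between genotypes under vehicle and 4 under TNFα, and 3 with TNFα in control and 5 in mutant cells. Without a filter beyond 1 count, 1 member (*Fzd9*) was called in the interaction.

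Small differences changed sign. The vehicle genotype difference of *Wnt5a* ranged from -0.028 to 0.049 with each library left out. Over the same fits the interaction ranged from -0.17 to 0.15 for *Dkk2*, from -0.22 to 0.0024 for *Wif1* and from -0.32 to 0.24 for *Lgr5*. Without replicate 4 of both control groups it was 0.21, 0.0027 and 0.27 in turn, none of which passed. The cause was not tested. With RLE scaling, tried after the data were seen, the *Dkk3* means were 421 CPM in mutant vehicle and 358 CPM in mutant TNFα cells, more than 1 SD from those given.

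Whether same-numbered libraries came from the same cells is not known. Deviations from the group means correlated between -0.190 and 0.141 for same-numbered libraries of different groups, over 13428 genes. For differently numbered libraries they correlated between -0.175 and 0.151. These values show no pairing by number, but with few libraries in each group they cannot exclude it. With the replicate block 8 members were called between genotypes under vehicle, 8 under TNFα and 10 with TNFα in each genotype. Depth limits *Dkk2*, *Wif1* and *Wnt16* most, with 16 to 23 counts in the smallest library.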
